A study of Mus musculus with 18 samples.

Results

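Sphingolipids are membrane and signalling lipids built on ceramide, and 10 genes of their desaturation, synthesis and breakdown were followed here across heart, kidney and liver of mice on a ketogenic or a standard chow diet. The 10 genes, Degs1, Degs2, Sptlc1, Sptlc2, Sgms1, Ugcg, Asah1, Asah2, Smpd1 and Gm2a, were taken by symbol from the 22609 genes counted, and all 10 were found in every library. They were chosen by name with their ketogenic against chow differences in these data already known, so their diet differences, and whether each passed the threshold used for all genes, are given as a description and support nothing. The differences between organs on chow were not used to propose them and are tested.

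The series held 18 RNA-seq libraries of C57BL/6J wild-type mice, 3 from each organ and diet. Mice were 4 weeks old when the diets began and ate either standard chow or, for the ketogenic groups, food that was 90% fat, 9.7% protein and 0.3% carbohydrate, for 21 days. No other treatment or allele is given in the labels, and neither the sex of the animals nor whether the 3 organs came from the same animals is stated. Libraries were made from organ RNA with a stranded mRNA kit, from RNA with an integrity number above 4. In whole organ, fewer cells of a type and less RNA per cell cannot be told apart.

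Ceramide synthesis begins at the endoplasmic reticulum, where serine palmitoyltransferase joins serine to a fatty acyl-CoA and later steps give dihydroceramide. DEGS1 inserts the double bond that turns dihydroceramide into ceramide, whereas DEGS2 can hydroxylate the same position and so makes phytoceramide. Ceramide is then carried into sphingomyelin or glucosylceramide, and lysosomal enzymes with their activator proteins take these products apart again. Kidney is known for phytoceramides and sulfated glycolipids, and liver for supplying sphingolipids to lipoproteins.

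The stretch before the transcription start is printed for Gm2a and Ugcg, which were both lower in ketogenic liver, and for Degs2, which was higher in ketogenic kidney. They were chosen after their values were seen, as the members with the largest differences. Each sequence is the 250 bases before the RefSeq start, read 5′ to 3′ on the strand of the gene, in build GRCm38.p6. Capitals mark the GC box, GGGCGG or its reverse complement CCGCCC. The regions are chr11:55097735-55097984 on the + strand for Gm2a, chr4:59189300-59189549 on the + strand for Ugcg and chr12:108702307-108702556 on the - strand for Degs2.
Gm2a: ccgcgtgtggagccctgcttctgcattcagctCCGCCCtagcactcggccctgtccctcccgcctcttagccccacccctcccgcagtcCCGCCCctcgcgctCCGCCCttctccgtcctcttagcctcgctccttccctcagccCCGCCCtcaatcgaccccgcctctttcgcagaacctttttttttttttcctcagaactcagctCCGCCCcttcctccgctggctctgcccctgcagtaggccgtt
Ugcg: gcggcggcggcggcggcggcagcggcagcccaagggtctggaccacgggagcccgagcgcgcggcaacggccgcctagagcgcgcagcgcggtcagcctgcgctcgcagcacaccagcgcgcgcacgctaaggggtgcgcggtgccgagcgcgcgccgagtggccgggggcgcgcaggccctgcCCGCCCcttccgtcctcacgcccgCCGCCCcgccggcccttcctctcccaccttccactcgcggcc
Degs2: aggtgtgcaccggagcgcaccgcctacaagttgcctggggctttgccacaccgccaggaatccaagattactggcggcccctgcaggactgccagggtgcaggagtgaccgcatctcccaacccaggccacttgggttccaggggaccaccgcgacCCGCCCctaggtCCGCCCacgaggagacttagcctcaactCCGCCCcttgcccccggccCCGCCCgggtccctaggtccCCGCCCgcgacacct
Gm2a and Degs2 each held 5 GC boxes and Ugcg held 2. Of 32851 RefSeq windows of the same length, 32.7% held at least 1 GC box and 1.93% held 5 or more. The other motifs searched on both strands were the E-box CACGTG, found in 6.02% of windows, the D-box TTATGNAA in 3.07%, the CCAAT box in 33.8% and the nuclear receptor direct repeat with a 1-base spacer in 0.0335%. These 4 motifs were not found in the 3 printed windows. RefSeq entries were matched for 9 of the 10 genes, all but Asah1. A match is a description of letters only, and its part in the diet differences was not tested.

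Total counts per library lay between 16135276 and 22767878 for heart, between 16173996 and 19923905 for kidney, and between 18151967 and 23835383 for liver. Ketogenic heart replicates 1 and 2, and ketogenic liver replicates 1 and 2, differed by less than the other replicates, with median chi-squares over genes of 0.666 and 0.698 against 1.23 to 4.20 in the other 16 pairs and 0.455 from counting alone. Each of these pairs was counted as 1 sample, which leaves n = 2 for ketogenic heart and ketogenic liver and n = 3 elsewhere. The replicates are labelled as biological, but which animals they came from is not given here, so the spread is that between libraries. Chow heart replicate 3 stood apart, with 47521.5 counts of the atrial light chain Myl7 against at most 266 in the other libraries. Heart muscle, kidney tubule and hepatocyte markers were high in the organs labelled with them: the summed heart muscle markers reached at least 40348 CPM (counts scaled to library size) in heart and at most 2.03 CPM in kidney and liver, those of kidney tubule at least 14088.5 CPM in kidney and at most 5.59 CPM elsewhere, and those of hepatocytes at least 87392 CPM in liver and at most 143.5 CPM elsewhere.

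On chow, the levels of the 10 genes were compared between organs. Levels are given in reads per kilobase of exon scaled to library size (RPKM), with TMM scaling over all libraries, and tests are edgeR's quasi-likelihood test with Benjamini-Hochberg adjustment over 15695 genes, called at an adjusted p under 0.05. Between kidney and heart 10 of the 10 members were called different, against 72.5% of all genes. Between liver and heart 10 of 10 were called, against 77.2% of all genes, and between kidney and liver 8 of 10, against 75% of all genes, so these shares are near the background. The scaling matters here: scaling by total count alone shifted the median of all genes by 0.38 in kidney minus heart, by -0.57 in liver minus heart and by 0.95 in kidney minus liver on the log2 scale.

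Degs1 had the narrowest spread over the organs of the 10 genes and Degs2 the widest. Degs1 had the second highest mean of the 10 genes in each organ, at 34.9 RPKM ± 1.12 (SD, n = 3) in heart, 54.2 ± 2.49 in kidney and 39.9 ± 0.980 in liver. Its kidney level exceeded that in heart by 0.63 ± 0.069 (log2 difference ± SE, adjusted p = 6.92e-07) and that in liver by 0.45 ± 0.069 (adjusted p = 2.72e-05). The smaller excess of liver over heart, 0.18 ± 0.070 (adjusted p = 0.0249), was lost without chow heart replicate 2 (adjusted p = 0.0899), chow liver replicate 1 (0.0608) or chow liver replicate 3 (0.0635). Under total-count scaling it turned to -0.38 (adjusted p = 0.000362). Degs2 was a kidney gene. Its chow libraries held 346, 327 and 307 counts in kidney, 12, 2 and 26 in heart and 1, 1 and 2 in liver. The log2 difference between kidney and heart was 4.39 ± 0.34 (adjusted p = 1.81e-08). Against liver, where the 3 libraries summed to 4 counts, the ratio of kidney to liver was 164.6 with an exact 95% interval of 64.1 to 605.1, which covers counting error only (adjusted p = 3.95e-09).

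The serine palmitoyltransferase subunits had their highest means in kidney. Sptlc1, which encodes the regulatory long-chain base subunit, stood at 16.7 RPKM ± 0.614 (SD, n = 3) in kidney, 14.9 ± 0.862 in liver and 7.82 ± 0.338 in heart, and kidney exceeded heart by 1.10 ± 0.070 (log2 difference ± SE, adjusted p = 1.17e-09). Its kidney excess over liver, 0.17 ± 0.069 (adjusted p = 0.0365), was not held without chow kidney replicate 1 (adjusted p = 0.102) or 2 (0.114), without chow liver replicate 2 (0.113) or 3 (0.115), nor with DESeq2 (0.094), RLE scaling (0.0883), no filter (0.0548) or the chow libraries alone (0.0603). Sptlc2, the catalytic partner, stood at 21.6 ± 1.10 in kidney, 9.71 ± 0.896 in liver and 6.84 ± 0.297 in heart. The kidney excess of Sptlc2 was 1.66 ± 0.084 over heart (adjusted p = 6.58e-11) and 1.16 ± 0.083 over liver (adjusted p = 4.36e-09), and its liver excess over heart was 0.50 ± 0.084 (adjusted p = 5.65e-05), which turned to -0.07 under total-count scaling.

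Sgms1 and Ugcg, 2 of the genes at the branch from ceramide, had opposite organ orders. Sgms1, a Golgi sphingomyelin synthase, was 12.7 RPKM ± 1.196 (SD, n = 3) in kidney, 10.3 ± 0.345 in heart and 4.18 ± 0.599 in liver, and Ugcg, which makes glucosylceramide, was 3.31 ± 0.201, 6.60 ± 0.232 and 13.7 ± 0.958 in the same order. Kidney minus liver was 1.60 ± 0.10 for Sgms1 (log2 difference ± SE, adjusted p = 9.06e-10) and -2.04 ± 0.11 for Ugcg (adjusted p = 1.25e-10). The kidney excess of Sgms1 over heart, 0.30 ± 0.095 (adjusted p = 0.0111), was lost without chow kidney replicate 2 (adjusted p = 0.067). Ugcg was lower in kidney than in heart by -0.998 ± 0.11 (adjusted p = 5.52e-07) and higher in liver than in heart by 1.04 ± 0.10 (adjusted p = 1.72e-07).

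Among the genes of breakdown, Smpd1 led in heart and Gm2a in kidney and liver. Smpd1, the lysosomal acid sphingomyelinase, stood at 93.1 RPKM ± 7.54 (SD, n = 3) in heart, 37.3 ± 1.82 in kidney and 30.4 ± 3.99 in liver, and it was lower in kidney than in heart by -1.32 ± 0.095 (log2 difference ± SE, adjusted p = 5.16e-09) and lower in liver than in heart by -1.62 ± 0.097 (adjusted p = 3.29e-10). Its kidney excess over liver, 0.30 ± 0.095 (adjusted p = 0.0101), was lost without chow liver replicate 2 (adjusted p = 0.0533) or replicate 3 (0.05, just past the threshold). Gm2a, the activator protein that presents ganglioside GM2 to hexosaminidase A, stood at 9.38 ± 1.89 in heart, 60.8 ± 7.44 in kidney and 74.2 ± 3.87 in liver. Kidney exceeded heart by 2.69 ± 0.13 (adjusted p = 5.63e-11), and kidney minus liver was -0.28 ± 0.12 (adjusted p = 0.0533). That last difference did not pass, and turned to 0.67 under total-count scaling (adjusted p = 0.000156). It passed with DESeq2 (adjusted p = 0.0206), limma (0.0386) and RLE scaling (0.0325). It also passed without chow heart replicate 2 (adjusted p = 0.0442), chow heart replicate 3 (0.0127) or chow kidney replicate 2 (0.0178). The ceramidases Asah1, which works in the lysosome, and Asah2, which works at neutral pH, both had their highest chow means in kidney, at 31.4 ± 1.40 and 12.7 ± 0.234. Kidney exceeded heart by 0.90 ± 0.090 for Asah1 (adjusted p = 2.40e-07) and by 1.24 ± 0.11 for Asah2 (adjusted p = 4.09e-08). Kidney minus liver was 0.42 ± 0.089 for Asah1 (adjusted p = 0.000527) and 0.22 ± 0.10 for Asah2 (adjusted p = 0.0695). The Asah2 difference did not pass, but did with the chow libraries alone (0.22, adjusted p = 0.0365) and under total-count scaling (1.17, adjusted p = 4.95e-08). For Asah1 the liver excess over heart of 0.48 ± 0.091 (adjusted p = 0.000175) turned to -0.09 under total-count scaling.

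Within each organ, the order of chow levels per length ran as follows. In heart Smpd1, Degs1 and Asah1 led in separate ranges, Sgms1, Gm2a and Sptlc1 overlapped with their neighbours, Sptlc2 and Ugcg overlapped each other, and Asah2 and Degs2 came last. In kidney Gm2a and Degs1 overlapped at the top, then came Smpd1, Asah1, Sptlc2 and Sptlc1 in separate ranges, Asah2 and Sgms1 overlapped, and Degs2 and Ugcg overlapped at the bottom. In liver Gm2a, Degs1, Smpd1 and Asah1 led in separate ranges, Sptlc1 and Ugcg overlapped, and Asah2, Sptlc2, Sgms1 and Degs2 followed in separate ranges.

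**Figure D1:**
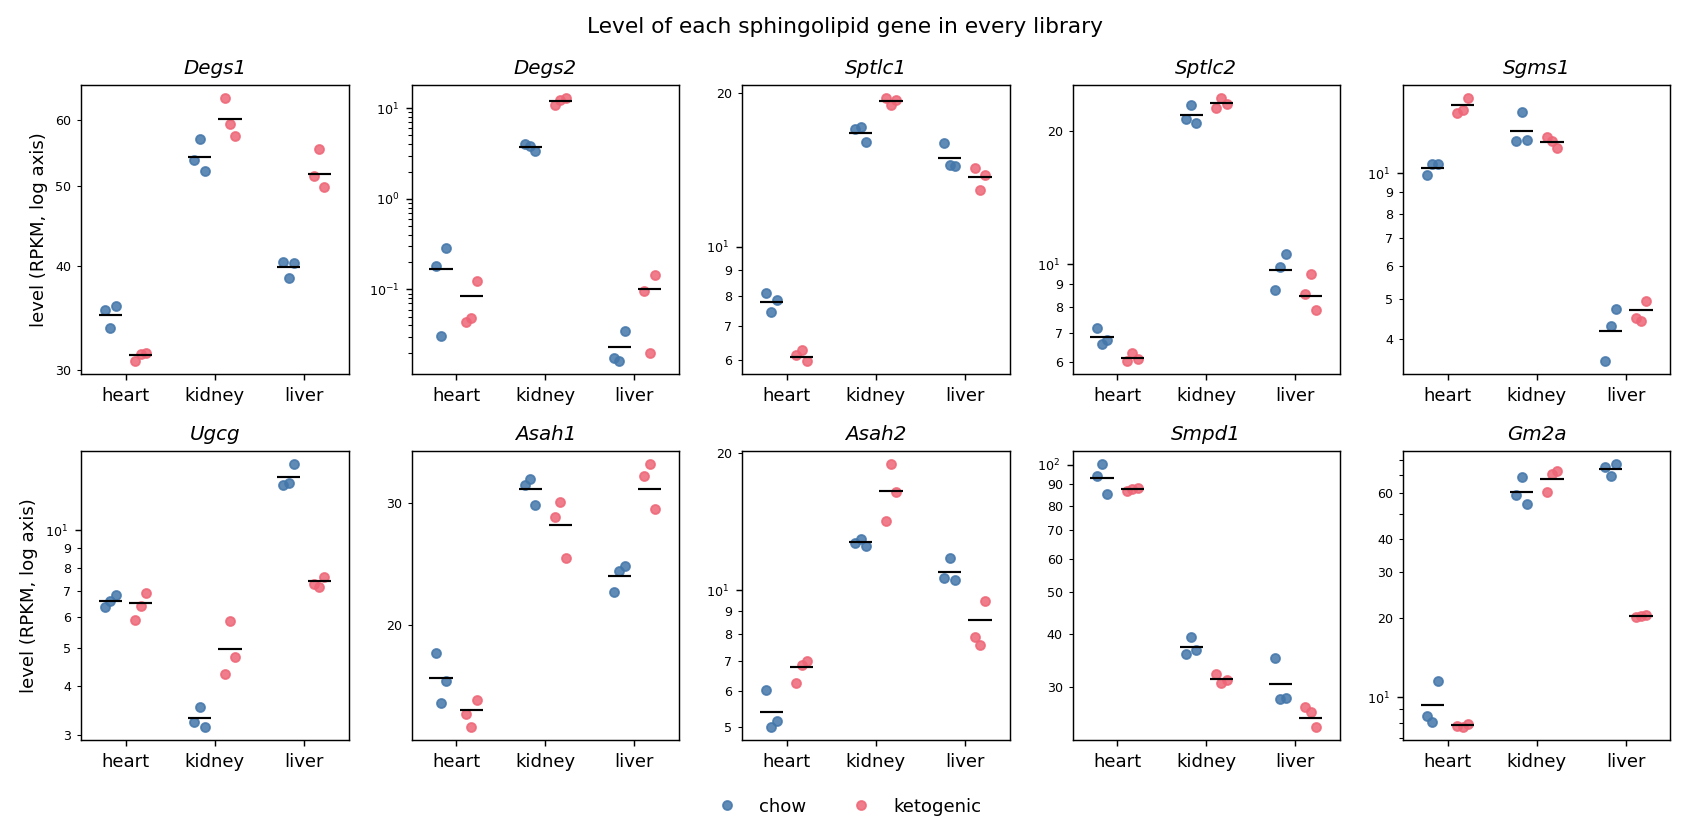
Level of each of the 10 genes in every library, in RPKM on a log axis that differs between panels. Points are libraries (blue chow, red ketogenic, 3 per group) and black bars are group means, with each near-identical ketogenic pair of heart and liver averaged first; the ketogenic libraries lie apart from chow for Degs2 in kidney (10.8 to 12.9 against 3.41 to 4.01) and for Gm2a in liver (20.2 to 20.5 against 69.9 to 77.4).

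Calls between the diets among the 10 genes are given beside the shares of all genes called. In heart 1 of the 10 tested members was called higher and 0 lower by edgeR (0 lower with DESeq2 and limma too; 1 lower, Sptlc1, at an unadjusted p under 0.05), against 6.25% of all 13609 genes called higher and 5.81% lower. In kidney 2 of 10 were called higher and 1 lower, against 3.59% and 5.45% of 14526 genes. In liver 2 of the 9 tested were called higher and 3 lower, against 19.2% and 17.6% of 13220 genes. Degs2 was too low in liver to be tested. The members' ketogenic and chow libraries did not overlap for 6 members in heart (2 higher, 4 lower), 6 in kidney (5 higher, 1 lower) and 7 in liver (2 higher, 5 lower), where 44.3%, 31.7% and 56.8% of all genes did not overlap. The median log2 fold change over the tested members was -0.16 in heart, 0.14 in kidney and -0.17 in liver, beside -0.03, 0.0015 and 0.0079 over all genes. Since the members were proposed with these contrasts known, nothing is read from these shares.

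**Figure D2:**
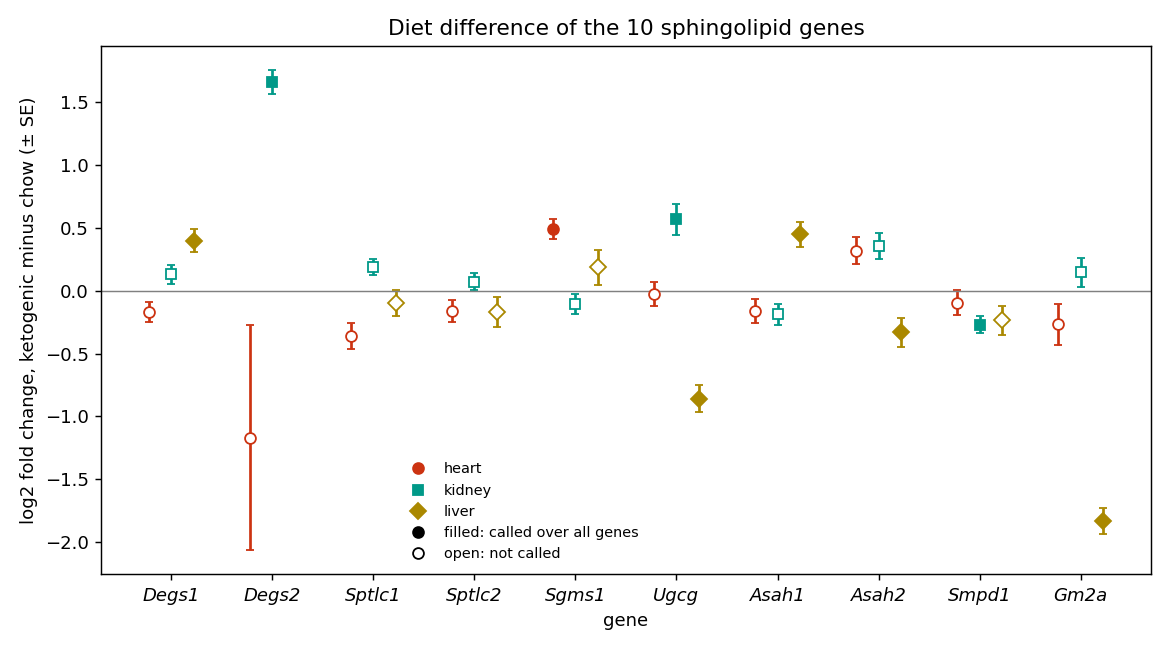
Log2 fold change of each gene on the ketogenic diet relative to chow, with its standard error, from the fit across all genes in each organ. Circles are heart, squares kidney and diamonds liver, filled where the adjusted p was under 0.05; Degs2 in kidney (1.66) and Gm2a in liver (-1.83) lie farthest from 0 among the filled points, and Degs2 in heart has the widest error.

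Of the desaturases, Degs2 differed in kidney and Degs1 in liver. Degs2 in kidney stood at 10.8, 12.2 and 12.9 RPKM in the ketogenic libraries and at 4.01, 3.79 and 3.41 in the chow libraries. Every ketogenic library was above every chow library, and the fitted log2 fold change was 1.66 ± 0.096 (SE), or 3.17-fold. In heart Degs2 had 3, 3 and 7 counts on the ketogenic diet and 12, 2 and 26 on chow, which overlap, and the value of -1.17 ± 0.90 carries that spread. In liver it had 5, 1 and 7 counts against 1, 1 and 2, too few to test. Degs1 in liver stood at 51.4, 55.4 and 49.8 RPKM on the ketogenic diet and at 40.5, 38.7 and 40.4 on chow, a log2 fold change of 0.40 ± 0.092 with no overlap. Degs1 values in kidney were 63.8, 59.4 and 57.5 RPKM against 53.7, 57.0 and 52.1, and in heart 30.7, 31.3 and 31.4 against 35.4, 33.7 and 35.8. The groups lay apart in these 2 organs as well, higher in kidney and lower in heart, but the fold changes of 0.13 ± 0.076 and -0.17 ± 0.080 were not called.

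Neither Sptlc1 nor Sptlc2 was called in any organ. Sptlc1 in heart stood at 6.15, 6.29 and 5.98 RPKM on the ketogenic diet and at 8.12, 7.45 and 7.88 on chow. The groups did not overlap and the log2 fold change was -0.36 ± 0.10. It was called in 5 of 15 alternatives, among them total-count scaling and all organs in 1 model. The others were leaving out chow heart replicate 3 (-0.35) and counting every library as a separate sample, without (-0.36) or with a replicate block. In kidney Sptlc1 stood at 19.6, 19.0 and 19.4 RPKM against 16.99, 17.2 and 16.02, a log2 fold change of 0.19 ± 0.066. In liver it was 14.2, 12.9 and 13.9 RPKM against 15.9, 14.5 and 14.4, a log2 fold change of -0.10 ± 0.10. Sptlc2 ranged from 6.05 to 6.29 RPKM on the ketogenic diet and 6.59 to 7.16 on chow in heart. The same ranges were 22.5 to 23.7 and 20.8 to 22.9 in kidney, and 7.87 to 9.495 and 8.74 to 10.5 in liver. Its fold changes lay between -0.17 and 0.07 on the log2 scale.

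At the branch point, Sgms1 was higher in ketogenic heart, and Ugcg was higher in ketogenic kidney but lower in ketogenic liver. Sgms1 in heart stood at 13.9, 14.2 and 15.2 RPKM on the ketogenic diet and at 9.91, 10.5 and 10.5 on chow. All ketogenic hearts were above all chow hearts, with a log2 fold change of 0.49 ± 0.081. That call was lost when ketogenic heart replicate 3 was left out (0.44) and when chow heart replicate 2 was left out (0.51). Sgms1 overlapped between diets in kidney, where the log2 fold change was -0.11 ± 0.080, and in liver, where it was 0.19 ± 0.14.

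Ugcg in liver stood at 7.28, 7.15 and 7.61 RPKM on the ketogenic diet and at 13.1, 13.2 and 14.8 on chow. The ketogenic livers were all well below the chow livers, a log2 fold change of -0.86 ± 0.11, or 1.81-fold lower. Ugcg in kidney stood at 4.30, 5.87 and 4.76 RPKM against 3.24, 3.53 and 3.15, with no overlap and a log2 fold change of 0.57 ± 0.12. The kidney call was lost without ketogenic kidney replicate 2 (0.43), ketogenic replicate 3 (0.60), or chow kidney replicate 1 (0.56), 2 (0.60) or 3 (0.54). In heart Ugcg was 5.89, 6.43 and 6.91 RPKM against 6.37, 6.61 and 6.83, and the groups overlapped.

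Of the ceramidases, Asah1 and Asah2 went in opposite directions in liver. Asah1 there stood at 32.8, 34.1 and 29.4 RPKM on the ketogenic diet and at 22.3, 23.9 and 24.3 on chow, with no overlap and a log2 fold change of 0.45 ± 0.10. Asah2 in liver stood at 7.90, 7.58 and 9.48 RPKM against 10.6, 11.8 and 10.5, also without overlap but in the lower direction, at -0.33 ± 0.12. The liver call of Asah2 was lost with total-count scaling, with a filter of 1 CPM in 3 libraries, without ketogenic liver replicate 2 (-0.31) and without chow liver replicate 1 (-0.35), 2 (-0.28) or 3 (-0.36). Asah2 was above chow in every ketogenic library of the other 2 organs, at 14.2, 19.0 and 16.4 RPKM against 12.7, 12.99 and 12.5 in kidney and at 6.26, 6.85 and 6.998 against 6.03, 5.01 and 5.17 in heart. These differences, 0.36 ± 0.10 and 0.32 ± 0.11, were not called. The one in kidney was called with DESeq2, with all organs in 1 model and without ketogenic kidney replicate 1 (0.45). The one in heart was called when every library was a separate sample. Asah1 overlapped between diets in heart (-0.16 ± 0.097) and kidney (-0.19 ± 0.086).

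Smpd1 was lower in ketogenic kidney. It stood there at 32.1, 30.6 and 31.2 RPKM on the ketogenic diet and at 35.8, 39.3 and 36.6 on chow, with no overlap and a log2 fold change of -0.27 ± 0.068. That call was lost with all organs in 1 model and with a replicate block. It was also lost without ketogenic kidney replicate 2 (-0.26) or 3 (-0.26) and without chow kidney replicate 1 (-0.30), 2 (-0.25) or 3 (-0.28). In liver Smpd1 was 26.8, 26.2 and 24.1 RPKM against 35.0, 28.1 and 28.2, and in heart 86.6, 87.6 and 88.1 against 93.8, 100.3 and 85.3. The liver groups lay apart and the heart groups overlapped, and neither -0.24 ± 0.12 nor -0.09 ± 0.097 was called.

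Gm2a had the largest difference of the 10 genes, in liver. It stood at 20.2, 20.5 and 20.5 RPKM in the ketogenic livers and at 75.2, 69.9 and 77.4 in the chow livers. The ketogenic livers lay far below every chow liver, with a log2 fold change of -1.83 ± 0.10, or 3.56-fold lower. In kidney Gm2a was 60.6, 71.0 and 72.7 RPKM against 59.0, 69.0 and 54.4, which overlap. In heart it was 7.82, 7.72 and 7.91 RPKM against 8.51, 8.09 and 11.6, and the log2 fold change of -0.27 ± 0.16 became -0.09 without chow heart replicate 3, the library with atrial transcripts.

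Cell type markers moved in the same comparisons, and their part in these results was not tested. In liver, macrophage markers summed to 481 to 792 CPM on the ketogenic diet and 534 to 628 on chow, with 0 of 10 tested called by edgeR (0 at an unadjusted p under 0.05, 1 by DESeq2 and 1 by limma). Hepatocyte markers summed to 87392 to 91637 CPM on the ketogenic diet and 141658 to 153665 on chow in liver, with 2 of 3 called lower. Of the fat cell markers in liver, Cfd stood at 165.9, 172.03 and 82.6 RPKM on the ketogenic diet and at most 0.126 on chow, Fabp4 at 8.999 to 11.2 against 8.22 to 12.7, and Plin1 and Adipoq had at most 2 counts in any liver library. In kidney, 2 of the 5 segment markers were called lower, among them the proximal tubule glucose transporter Slc5a2 (-0.47 ± 0.12), while the 3 kidney tubule markers summed to 15206.7 to 21183.2 CPM on the ketogenic diet and 14088.5 to 15438.7 on chow, with 0 of 3 called by edgeR (1 at an unadjusted p under 0.05 and by DESeq2, 0 by limma). The water channel Aqp2 was 227.6, 94.4 and 80.2 RPKM in ketogenic kidney and 92.0, 96.9 and 167.7 in chow kidney. Fat cell markers in kidney summed to 40.4 to 262.9 CPM on the ketogenic diet and 38.6 to 109.1 on chow. In heart, 7 of 8 tested macrophage markers were called lower, and the list summed to 303 to 310 CPM on the ketogenic diet against 491 to 554 on chow. Red cell markers in heart summed to 559.7 to 1291 CPM on the ketogenic diet and 2270 to 3237 on chow. The dividing-cell markers Mki67 and Top2a summed to 9.24 to 16.6 CPM on the ketogenic diet and 36.2 to 95.9 on chow in heart (1 of 2 called lower), 5.20 to 20.7 against 59.5 to 91.2 in kidney (2 of 2 lower) and 6.79 to 9.85 against 85.4 to 133.8 in liver (2 of 2 lower). The fibroblast collagens Col1a1 and Col1a2, 2 of 4 fibroblast markers, were called lower in each organ, and Dcn was called higher in liver; the list summed to 1016 to 1095 CPM against 1675 to 2697 in heart, 223.1 to 317.6 against 662.6 to 1040 in kidney and 239.5 to 279.6 against 305.3 to 330.04 in liver.

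The share of 1 gene in a pair was computed in each library. The pairs were the desaturases Degs1 and Degs2, the ceramidases Asah1 and Asah2, the subunits Sptlc1 and Sptlc2, and Sgms1 with Ugcg. Sgms1 and Ugcg are not the only genes that draw on ceramide. Sgms2, a gene of the sphingomyelin synthesis list outside this share, had chow means of 23.0 RPKM in liver, 23.5 in kidney and 0.714 in heart. Degs2 made up 14.5%, 17.1% and 18.3% of the summed Degs1 and Degs2 RPKM in ketogenic kidney, against 6.95%, 6.24% and 6.14% in chow kidney. Its share was at most 0.802% in any heart or liver library. Asah2 made up 21.6% ± 3.97 (SD, n = 2) of the 2 ceramidases in ketogenic liver and 31.9% ± 1.44 (n = 3) in chow liver, but 37.2% ± 3.54 (n = 3) and 28.9% ± 0.605 (n = 3) in kidney. In heart the Asah2 share was 31.0% ± 0.0392 (n = 2) on the ketogenic diet and 24.4% ± 0.576 (n = 3) on chow. Ugcg made up 61.3% ± 0.777 (n = 2) of Ugcg plus Sgms1 in ketogenic liver and 76.7% ± 1.76 (n = 3) in chow liver. That share was 30.9% ± 0.602 (n = 2) against 39.0% ± 0.437 (n = 3) in heart and 29.4% ± 3.43 (n = 3) against 20.7% ± 0.628 (n = 3) in kidney. The ketogenic and chow libraries did not overlap in any of the Asah2 or Ugcg shares, and liver moved opposite to kidney in both. They did overlap in the Degs2 share in heart and liver. The share of Sptlc2 in Sptlc1 plus Sptlc2 overlapped in liver (36.2% to 42.4% against 35.4% to 42.2%) but not in heart or kidney. Of all single genes, 44.3% in heart, 31.7% in kidney and 56.8% in liver did not overlap.

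**Figure D3:**
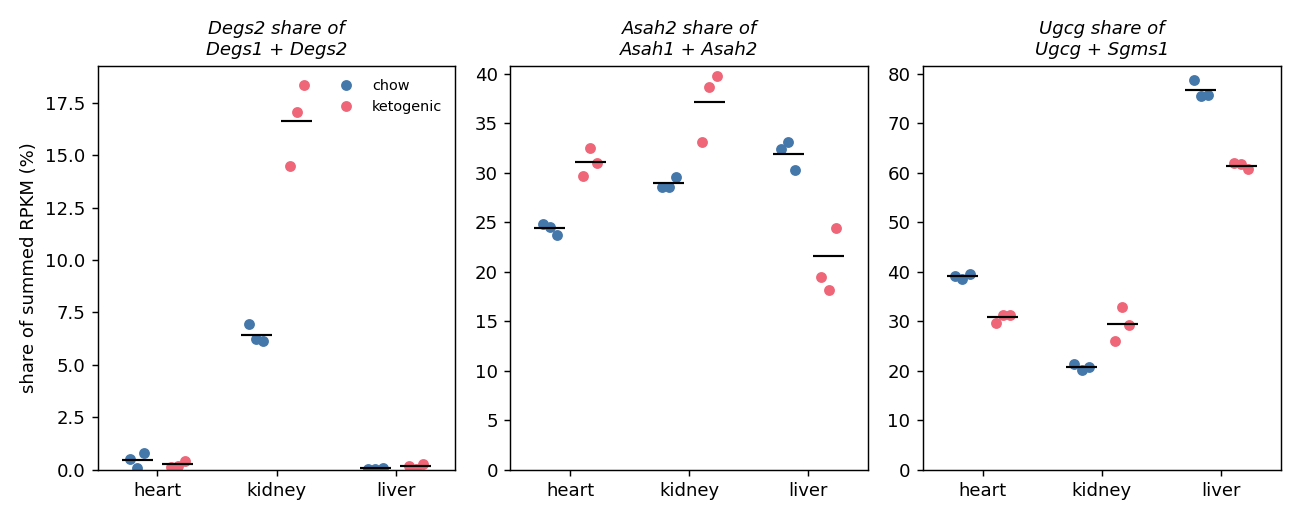
Share of one enzyme in the summed RPKM of a pair, in percent, for every library (blue chow, red ketogenic, black bars group means with near-identical pairs averaged first). The Degs2 share in kidney ran from 6.14% to 6.95% on chow and from 14.5% to 18.3% on the ketogenic diet, and the Asah2 and Ugcg shares moved up in kidney and down in liver.

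Set side by side between organs, the diet differences of 3 of the 10 members differed between heart and kidney (2.5% of all genes did), 5 between heart and liver (23.5%) and 5 between kidney and liver (21.8%). These comparisons use the same diet contrasts and are a description for the members. Gm2a, Ugcg, Asah1 and Asah2 differed between liver and each of the other organs.

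The other genes of the pathway were taken from lists by role, 67 genes of which 65 were in the files. These lists, and the list of other lysosomal genes below, were chosen with earlier results of these data known. Their diet calls and adjusted p are therefore also a description. Lists are described by their counts and medians beside those of all genes. In heart 4 of 57 tested were called higher and 4 lower, with a median log2 fold change of -0.18. In kidney 4 of 61 were called higher and 2 lower, with a median of 0.04, and in liver 12 of 54 were called higher and 11 lower, with a median of -0.03. Beside these stand all-gene shares of 6.25% and 5.81% in heart, 3.59% and 5.45% in kidney and 19.2% and 17.6% in liver.

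In liver 3 of the 5 tested regulators and partners of serine palmitoyltransferase rose and 0 were called lower, with a list median of 0.49. Ormdl3 (0.19, adjusted p = 0.254) and Kdsr (-0.16, adjusted p = 0.254) did not pass. Ormdl1 rose by 1.35 ± 0.12 (log2 fold change ± SE, adjusted p = 1.55e-05) and Ormdl2 by 0.49 ± 0.13 (adjusted p = 0.0105), which hold the enzyme back when ceramide is plentiful, and the small activating subunit Sptssa, listed in the files as 1110002B05Rik, by 0.89 ± 0.12 (adjusted p = 0.000217). Ormdl1 stood at 32.4, 32.3 and 26.3 RPKM in the ketogenic livers and at 11.9, 10.9 and 12.5 in the chow livers. In heart 1 of 5 was called, 1110002B05Rik, lower by -0.47 ± 0.11 (adjusted p = 0.0395), and in kidney 0 of 6 were. Among ceramide synthases the liver had 1 of 4 called, Cers2 (listed as Lass2), which makes very-long-chain ceramides, at -0.32 ± 0.11 (adjusted p = 0.036). That call was lost without chow liver replicate 1 (adjusted p = 0.0676) or 2 (0.0935). In heart 0 of 5 and in kidney 0 of 6 of this list were called.

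Genes of sphingosine 1-phosphate changed in liver in both directions, with 2 of 9 called higher and 4 lower and a median of -0.35. Aldh3a2, the fatty aldehyde dehydrogenase that oxidises the long-chain aldehyde left when sphingosine 1-phosphate is cleaved and also acts on other fatty aldehydes, was 497.4, 498.7 and 455.7 RPKM on the ketogenic diet and 128.6, 127.8 and 93.9 on chow. It rose by 2.06 ± 0.14 (log2 fold change ± SE, adjusted p = 4.35e-06), or 4.16-fold. Sphk2, a sphingosine kinase, fell, with a log2 fold change of -0.94 ± 0.12 (adjusted p = 0.000156). Sgpl1, the lyase that cleaves sphingosine 1-phosphate, fell, at -0.76 ± 0.10 (adjusted p = 0.00026), and so did the receptor S1pr1, at -0.61 ± 0.11 (adjusted p = 0.00187). In kidney 1 of 11 was called, Aldh3a2, higher by 0.79 ± 0.16 (adjusted p = 0.0197). In heart 2 of 10 were called, both lower, Sphk2 at -0.46 ± 0.092 (adjusted p = 0.0234) and the receptor S1pr2 at -0.75 ± 0.18 (adjusted p = 0.04).

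Genes of glycosphingolipid synthesis also changed. In kidney Ugt8a, which makes galactosylceramide, stood at 29.3, 36.3 and 28.01 RPKM on the ketogenic diet and at 15.3, 14.9 and 14.2 on chow. It rose by 1.06 ± 0.11 (log2 fold change ± SE, adjusted p = 0.00149). The other 2 of the 10 tested in kidney that were called were lower, the sialyltransferase St3gal2 at -0.48 ± 0.089 (adjusted p = 0.0129) and the galactosyltransferase B4galt6 at -0.57 ± 0.14 (adjusted p = 0.0415). In liver 2 of 8 were called higher and 2 lower. B4galnt1, which makes GM2 from GM3, fell, at -0.67 ± 0.10 (adjusted p = 0.000531), and B4galt5, a lactosylceramide synthase, fell, at -0.45 ± 0.13 (adjusted p = 0.0217). St3gal5, the GM3 synthase, rose by 0.69 ± 0.20 (adjusted p = 0.0392), and the sulfotransferase Gal3st1 rose by 0.85 ± 0.25 (adjusted p = 0.0223). In heart 0 of 9 were called.

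Lysosomal genes of glycosphingolipid breakdown were called in both directions beside Gm2a in liver, 2 of 14 higher and 2 lower with a median of -0.05. Hexa, whose product takes GM2 from the Gm2a protein, rose by 0.62 ± 0.099 (log2 fold change ± SE, adjusted p = 0.00064), while the galactosidase Glb1 fell, at -0.81 ± 0.11 (adjusted p = 0.000218). The membrane protein Scarb2 was higher by 0.38 ± 0.11 (adjusted p = 0.02). In kidney 2 of 14 were called, both higher, the sialidase Neu1 by 0.59 ± 0.11 (adjusted p = 0.0125) and the saposin precursor Psap by 0.53 ± 0.13 (adjusted p = 0.0388). In heart 2 of 14 were called higher and 1 lower. Psap rose by 0.67 ± 0.12 (adjusted p = 0.0178) and Scarb2 by 0.51 ± 0.088 (adjusted p = 0.0146).

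The remaining lists had few calls. In the list of sphingomyelinases and sphingomyelinase-like genes, 1 of 5 was called in liver. It was the sphingomyelinase-like Smpdl3a, higher by 0.65 ± 0.11 (log2 fold change ± SE, adjusted p = 0.00105). In heart 1 of 5 was called, Smpd2, higher by 0.42 ± 0.099 (adjusted p = 0.0374), and in kidney 0 of 5. Among genes of sphingomyelin synthesis and transfer, 2 of 6 were called in liver, the glycolipid transporter Plekha8 at 0.42 ± 0.10 (adjusted p = 0.00742) and the ceramide transporter Col4a3bp at -0.39 ± 0.11 (adjusted p = 0.0153). In heart 1 of 6 of that list was called, the sphingomyelin synthase-related Samd8, higher by 0.33 ± 0.080 (adjusted p = 0.0394), and in kidney 0 of 6. Of the other ceramidases 2 of 3 were called in liver, Acer3 higher by 0.41 ± 0.13 (adjusted p = 0.0304) and Acer2 lower at -0.41 ± 0.14 (adjusted p = 0.0455), and 0 of 3 in heart and in kidney.

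Lysosomal genes outside sphingolipid breakdown, given for comparison with Gm2a, Asah1 and Smpd1, were called lower more than higher in liver, 6 of 18 against 2, with a median of -0.15. Among those with the smallest p were Gusb at -0.92 ± 0.11 (log2 fold change ± SE, adjusted p = 0.000132), the acid lipase Lipa at -0.54 ± 0.098 (adjusted p = 0.00162) and the cathepsin Ctsz at -0.53 ± 0.10 (adjusted p = 0.00232). In heart 1 of 18 was called higher and 2 lower, the cholesterol exporter Npc1 at 0.91 ± 0.12 (adjusted p = 0.007), Gusb at -0.75 ± 0.12 (adjusted p = 0.0126) and Ctsz at -0.56 ± 0.099 (adjusted p = 0.016). In kidney 1 of 18 was called, Npc1, at 0.31 ± 0.080 (adjusted p = 0.0454). Macrophage markers, which were lower in ketogenic heart, moved with Gusb and Ctsz there, and their part was not tested.

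Several of these list calls did not pass when 1 library was left out. Their log2 fold changes kept their sign in every alternative, for example at 0.54 to 0.73 for Psap in heart. Such fits have fewer samples, and calls over all genes moved too. In heart they went from 1642 to 459 without chow replicate 2 and to 3742 without chow replicate 3. All 11 heart calls in these lists were lost without ketogenic heart replicate 3 (adjusted p from 0.0998 to 0.275), which leaves that diet with 1 sample, 10 without chow heart replicate 2 (0.0546 to 0.115) and 6 without chow heart replicate 1 (0.0568 to 0.1). Of the 7 kidney calls, 6 were lost without chow kidney replicate 3 (0.0608 to 0.152), 5 without chow replicate 1 (0.0804 to 0.18), and 4 each without chow replicate 2 (0.0615 to 0.0858), ketogenic replicate 2 (0.0728 to 0.11) or ketogenic replicate 3 (0.0551 to 0.136), and Ugt8a was called in each of these fits. Of the 25 liver calls with the smallest p in their lists (at most 4 a list), 7 were lost without chow liver replicate 2 (0.0543 to 0.129), 5 without chow replicate 1 (0.0538 to 0.0696), 5 without chow replicate 3 (0.0584 to 0.102), 4 without ketogenic replicate 3 (0.0551 to 0.14) and 1 without ketogenic replicate 2 (0.0589). Among the other settings, limma ended the calls of S1pr2 (0.0596) and Samd8 (0.0539) in heart and Npc1 in kidney (0.0518), DESeq2 those of Acer2 (0.0597) and Acer3 (0.0547) in liver, and total-count scaling those of Samd8 (0.144) and Smpd2 (0.0836) in heart, Npc1 (0.13) in kidney and Acer2 (0.0837), B4galt5 (0.0529) and St3gal5 (0.0688) in liver. With all organs in 1 model, Samd8 in heart (0.0543), Npc1 in kidney (0.117) and Acer2 in liver (0.363) did not pass. Without a filter St3gal5 in liver did not (0.0699), nor Acer2 with 1 CPM in 3 libraries (0.0513). Where a list had 0 calls by edgeR, 10 genes passed an unadjusted p under 0.05: Lass5, B4galt6 and St3gal5 in heart, and Kdsr, 1110002B05Rik, Sptlc3, Lass6, Col4a3bp, Plekha8 and Smpdl3a in kidney; in these lists DESeq2 called 3 genes and limma 0. Aldh3a2, Ormdl1, Ormdl2, 1110002B05Rik, Sphk2, Sgpl1, S1pr1, B4galnt1, Hexa, Glb1 and Smpdl3a in liver were called in all 15 alternatives run.

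**Figure D4:**
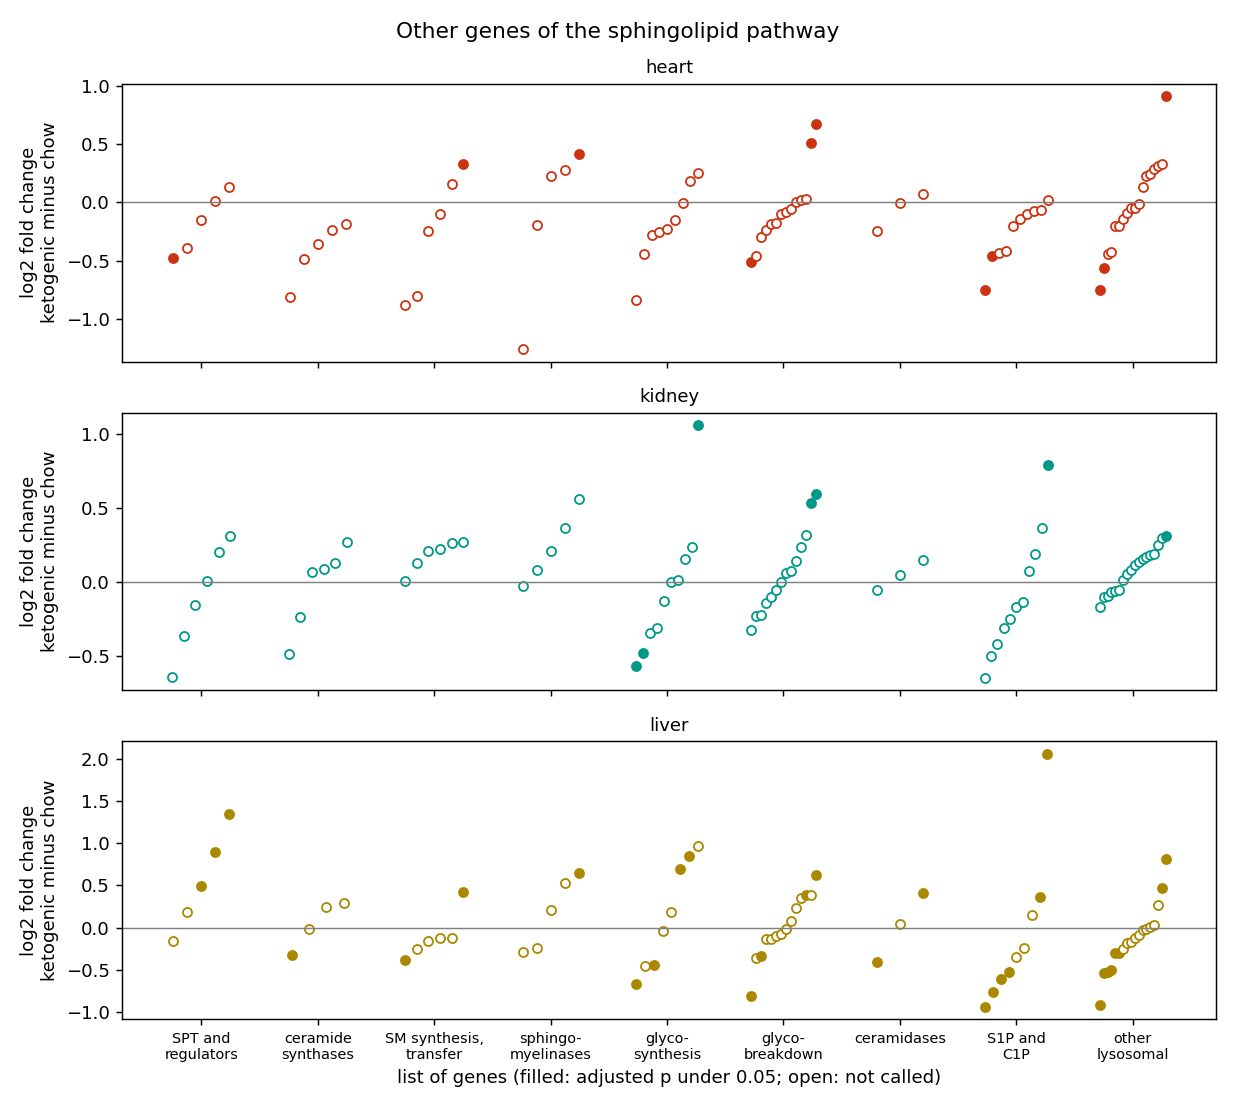
Log2 fold change on the ketogenic diet of every tested gene in 9 lists, in heart, kidney and liver (points sorted within a list, filled where the adjusted p was under 0.05). SPT is serine palmitoyltransferase, SM sphingomyelin, S1P and C1P sphingosine and ceramide 1-phosphate; liver holds the most filled points, with Aldh3a2 (2.06) and Ormdl1 (1.35) highest.

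The genes whose values ran most like the desaturases were found by Pearson's r of log2 CPM after the organ mean was subtracted. For Degs1, over the 16 samples of the 3 organs and among 10269 genes, they were Hint2 (r = 0.94), Cul4b (0.94), Cyb5 (0.92), Pik3c2a (0.92) and Npm3 (0.92). For Degs2, over the 6 kidney libraries and among 10736 genes, they were Hspb6, Naa16, Cml2, Dnajb6 and Lgals4, with r from 0.995 to 0.998. The samples share their diet groups and libraries, and the highest r among so many genes over so few samples is high by selection, so these are descriptions. Among the members themselves, Gm2a ran most like Ugcg (r = 0.83) and Sgms1 ran opposite to Sptlc1 (r = -0.82).

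In mm9, the build of the files, the 10 genes lie at chr1:184205901-184212890 (Degs1, - strand), chr12:109925002-109940516 (Degs2, -), chr13:53428119-53472730 (Sptlc1, -), chr12:88648839-88729180 (Sptlc2, -), chr19:32197217-32462944 (Sgms1, -), chr4:59202422-59235705 (Ugcg, +), chr8:42425997-42460051 (Asah1, -), chr19:32059141-32177630 (Asah2, -), chr7:112702874-112706903 (Smpd1, +) and chr11:54911487-54926530 (Gm2a, +). Counts cover the exons of each gene as a whole. Reads that matched several places or genes were shared out as fractions, and Degs2 held whole counts in every library.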

How the data were processed

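RNA-seq counts per gene were analysed for 18 libraries of heart, kidney and liver. Per the file headers, the authors counted read pairs on exons with featureCounts as estimated counts, since reads with several matches or genes were shared as fractions, with a minimum mapping quality of 2 and strandedness setting 2, against an mm9 annotation. Per the submitters' processing notes, reads were aligned with HISAT2 2.1.0 and counted with featureCounts 1.5.0. The gene length, another deposited value in the file headers, is the exon length in bases.

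Fractional counts were rounded here before testing, which moved no library total by over 0.00087%. Near-identical replicate pairs (median chi-square under 1 over genes with at least 20 counts in the pair) were summed. Each organ was tested with edgeR 4.0.16 (quasi-likelihood, robust, filterByExpr, TMM scaling), and the organ contrasts in 1 model of 6 groups over 16 samples. Adjusted p is Benjamini-Hochberg over all genes tested, called under 0.05. RPKM were computed here with TMM over all libraries. DESeq2 1.42.0, limma 3.58.1, other scalings and filters, a replicate block and leaving out each library (each chow library for the organ contrasts on chow) were alternatives. The edgeR steps were tested on simulated data.

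The members and lists were chosen with earlier results of these data known. All members were named, and from each list up to 4 called genes per organ with the smallest p; for Degs1 and Degs2, the 5 most similar genes, with predicted genes left out and a mean log2 CPM of at least 2. Promoter letters are RefSeq's. Gene coordinates are those of the files. A few genes of the lists are not reported here by name.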

Additional observations from a re-analysis of the deposited data

Results flagged for a closer look

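The diet difference (log2 fold change, ketogenic minus chow) of 13 member and organ-pair combinations differed between organs in 1 model of all libraries. The members were proposed with these contrasts known, so the values are a description. Heart minus kidney was -2.94 ± 0.64 (SE) for Degs2, -0.54 ± 0.11 for Sptlc1 and 0.62 ± 0.14 for Sgms1. Heart minus liver was -0.52 ± 0.11 for Degs1, 0.87 ± 0.16 for Ugcg, -0.57 ± 0.14 for Asah1, 0.70 ± 0.17 for Asah2 and 1.61 ± 0.20 for Gm2a. Kidney minus liver was 0.32 ± 0.10 for Sptlc1, 1.46 ± 0.16 for Ugcg, -0.61 ± 0.13 for Asah1, 0.72 ± 0.16 for Asah2 and 2.01 ± 0.19 for Gm2a. Of these, 9 of 13 were called in all 24 alternatives, which were chosen after seeing the data: 6 processing settings and leaving out each of the 18 libraries. The other four were the 3 in heart minus kidney and Sptlc1 in kidney minus liver. Degs2 rests on 3, 3 and 7 counts against 12, 2 and 26 in heart. Its call was lost with limma (-2.55), without chow heart replicate 1 (-2.94) or 3 (-2.25), without any 1 chow kidney replicate (-3.02 to -2.90) and without ketogenic kidney replicate 2 (-2.92) or 3 (-2.88). Sptlc1 in heart minus kidney lost it without ketogenic heart replicate 3 (-0.51). Sgms1 lost it under total-count scaling (0.55), without chow heart replicate 1 (0.59) or 2 (0.63), without ketogenic heart replicate 3 (0.56), without any 1 chow kidney replicate (0.51 to 0.63) and without ketogenic kidney replicate 2 (0.62) or 3 (0.60). Sptlc1 in kidney minus liver lost it under total-count scaling, where the value was 0.18, and without a filter (0.32). It was also lost without any 1 chow kidney replicate (0.28 to 0.33), chow liver replicate 1 (0.27), ketogenic heart replicate 3 (0.32), any 1 ketogenic kidney replicate (0.30 to 0.33) or ketogenic liver replicate 3 (0.30).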

How the results depend on the processing

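With every library as a separate sample, genes called in heart went from 1642 to 3317, and with a replicate block on top to 2710. The replicate block moved the kidney count from 1314 to 855 and changed no liver or organ-contrast count by over 1.5 times. Same-numbered ketogenic and chow libraries correlated at r from -0.14 to 0.16 after group means were removed. Each ketogenic liver library and ketogenic heart replicate 3 correlated best with the chow library of its own number, and no kidney library did. With so few libraries per group and near-identical pairs among them, these values cannot tell whether same-numbered libraries shared an animal or a batch. The block ended the kidney calls of the member Smpd1 and of B4galt6 (adjusted p = 0.11), Psap (0.0816) and Npc1 (0.0928). It also ended the kidney minus liver call of Sptlc1 on chow (0.0703), and Asah2 passed in that contrast (0.0496). Leaving out 1 library gave 89 (without ketogenic heart replicate 3) to 3742 (without chow heart replicate 3) calls in heart, 412 (without chow kidney replicate 1) to 3402 (without ketogenic kidney replicate 1) in kidney, and 131 (without ketogenic heart replicate 3) to 671 (without ketogenic kidney replicate 1) for heart minus kidney, where 392 became 895 with DESeq2; the cause was not tested. Liver counts ran from 3964 to 6227 around 4868.

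Total-count scaling shifted the median of all genes to -0.17 in heart and -0.09 in kidney, and made 24.4% of heart calls and 25.3% of kidney calls higher, against 51.8% and 39.7% with TMM. It turned 4 organ differences: Degs1, Sptlc2 and Asah1 in liver minus heart to -0.38, -0.065 and -0.087, and Gm2a in kidney minus liver to 0.67. Of the 9 members' diet calls, 9 kept their sign and 5 their call in every alternative: Degs2 in kidney and Gm2a, Ugcg, Degs1 and Asah1 in liver. Members called ranged from 0 to 3 in heart, 1 to 4 in kidney and 4 to 5 in liver. Degs2 had at most 26 counts in any heart or liver library, which limits what can be seen of it there.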

Other observations

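Psap, the precursor of the saposins, was 777.5, 750.6 and 744.8 RPKM in ketogenic heart and 495.6, 509.9 and 414.7 in chow heart, and 273.3, 274.1 and 255.9 RPKM in ketogenic liver and 304.96, 284.9 and 278.8 in chow liver. The liver difference (-0.10 ± 0.10, log2 fold change ± SE) was not called.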
